A study of Arabidopsis thaliana with 18 samples.

Results

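The cytosolic ribosome of Arabidopsis is built from 2 subunits, each an assembly of ribosomal RNA and a set of ribosomal proteins that are named RPL in the large subunit and RPS in the small one. Almost every such protein is encoded by a family of paralogs, and a ribosome mostly holds 1 copy of each protein, so the genes are generally expressed together. Ribosomes bind a large share of the nitrogen and phosphorus of a growing leaf, and the expression of their genes is known to follow nutrient and growth signals, among them the TOR kinase. A set of 48 genes, 28 for the large and 20 for the small subunit, was taken by locus from the annotated cytosolic RPL and RPS genes. All 48 had a probe that was well above background on all 18 arrays, out of 21060 genes with a tested probe.

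Whole shoots of 2 complementation lines were compared, *AO*pro(wt)-*AO*, named the wt line in what follows, and *AO*pro(mut)-*AO*, named the mut line. Both carry the T-DNA insertion *fin4-2* in *AO*, the gene for the aspartate oxidase that starts de novo NAD synthesis, and both carry a genomic *AO* construct, which has its own promoter in the wt line and a promoter with a mutated NLP-binding site in the mut line. Each genotype was represented by line #1 alone, so that line and construct cannot be told apart. Plants grown for 20 days were collected (0d), or were kept for 3 days on N-free solution, or were then given 10 mM KNO3 for 24 hours. The study's methods place all 20 days in hydroponic culture on 1/10MS solution. The submitters' growth notes give 1 day in light, 2 days in the dark and 17 days in hydroponic culture. There were 3 arrays per line and stage, each from the pooled shoots of 2 or 3 seedlings. Plants kept on N for the same days were not among the arrays, so that age and N supply cannot be told apart.

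Signals were taken on a log2 scale on which 0 is the 75th percentile of the array. That percentile was 2221 to 3122 in scanner units, 72.6% to 76.1% of spots stood well above background, and saturated spots were not found. The *AO* signal lay between 0.50 and 1.62 on the arrays of the wt line and between -1.63 and -0.87 on those of the mut line, as the line labels say. The shoot label was checked by 5 leaf cell genes, whose summed signal was 657 to 925 times the 75th percentile, and by 5 root genes, of which 2 were not well above background and the other 3 summed to 0.05 to 0.10. The arrays lay on 5 slides, each with more than 1 group.

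In shoots of the wt line all 48 ribosomal protein genes fell with N starvation. The median log2 fold change was -0.68, a 1.61-fold decrease, with a range of -1.02 to -0.43 and an SD over the genes of 0.12. Among all genes tested the median was -0.01 and 31.9% were lower and 28.1% higher at an adjusted p of 0.05 (limma, Benjamini-Hochberg). In all 48 genes the 3 arrays after starvation lay below the 3 arrays at 0d, as they did in 36% of all genes. The 28 large subunit genes had a median of -0.73 and the 20 small subunit genes of -0.66. Only AT5G03850, for S28, passed a fold change of 2 as well, and that value rests on 1 array, as described further on.

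In shoots of the mut line 46 of the 48 genes fell with N starvation, where 23.4% of all genes were lower and 18.1% higher. The median was -0.46, a 1.38-fold decrease, within a range of -0.71 to -0.21 and an SD over the genes of 0.09. AT3G53890 for S21 (-0.21, adjusted p = 0.29) and AT5G03850 for S28 (-0.40, adjusted p = 0.19) did not pass the test. The arrays of the 2 stages did not overlap in 47 genes, against 29.3% lower among all genes.

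KNO3 resupply raised 47 of the 48 genes in each line. In the wt line the median was 0.52, a 1.43-fold increase, with a range of 0.19 to 0.84, where 23.3% of all genes were higher and 25.0% lower. *SAG24* (AT1G66580), a gene for L10 with a symbol that stands for a senescence-associated gene, did not pass (0.19, adjusted p = 0.06), but did with the median shift (0.22, adjusted p = 0.0437), with array weights (0.23, adjusted p = 0.0125), and without replicate 1 of the starved (0.24, adjusted p = 0.0415) or of the resupplied arrays (0.26, adjusted p = 0.0147). In the mut line the median was 0.54, a 1.45-fold increase, with a range of 0.24 to 0.75, where 14.1% of all genes were higher and 13.2% lower. Here AT5G03850 did not pass (0.50, adjusted p = 0.13), again with the spread that takes in the low array of the starved wt line. Its resupplied mut arrays, at 4.04, 4.12 and 4.27, lay above the starved ones. The 2 subunits had medians of 0.52 and 0.51 in the wt line and of 0.55 and 0.51 in the mut line.

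**Figure D1:**
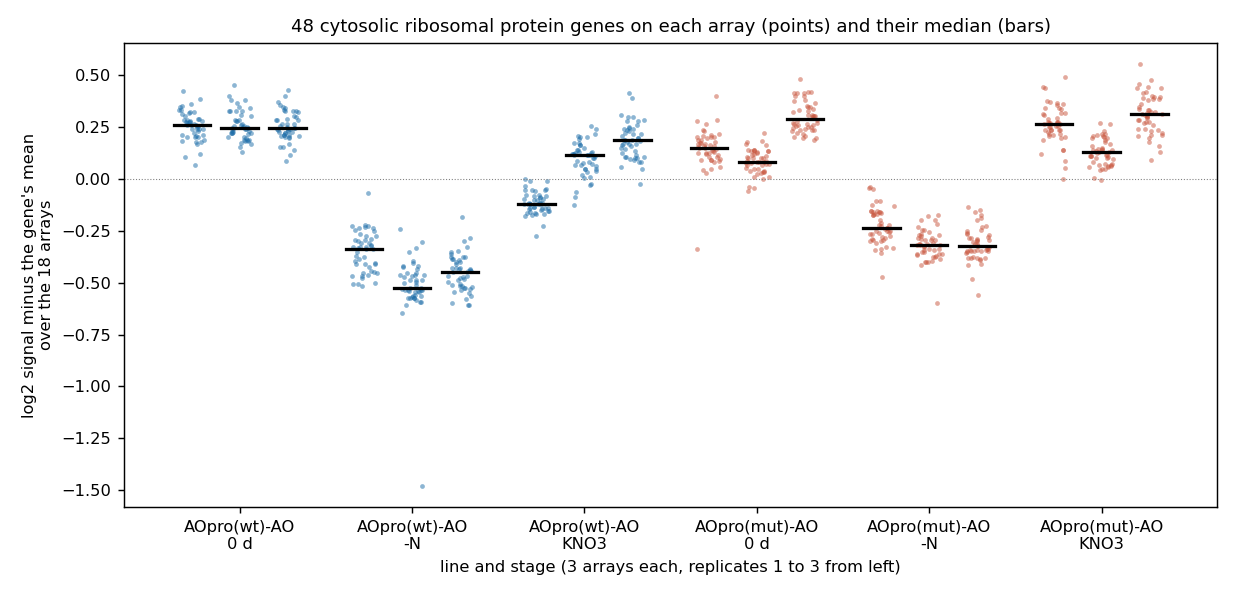
Log2 signal of the 48 genes on each of the 18 arrays, each gene set to its own mean over all arrays (points), with the median of the genes on the array (bars). The 3 starved arrays of each line lie below its other arrays, and 1 point, AT5G03850, lies far below the rest on replicate 2 of the starved wt line.

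The level of the whole set on an array can be read as the median over the 48 genes of the distance from each gene's own mean. It was 0.26, 0.25 and 0.25 on the 3 arrays of the wt line at 0d, and -0.34, -0.52 and -0.45 after starvation. After resupply it was -0.12, 0.11 and 0.19, so that replicate 1, on slide 2, recovered less than the other 2. All 48 genes had a lower mean after resupply than at 0d in this line, with a median difference of -0.20, which was not tested.

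The same level in the mut line was 0.15, 0.08 and 0.29 on the 3 arrays at 0d and -0.24, -0.32 and -0.32 after starvation. It was 0.26, 0.13 and 0.31 after resupply. These resupplied arrays reached the range of the 0d arrays, and 38 of the 48 genes had a higher mean after resupply than at 0d, with a median difference of 0.05. In every gene of either line the starved mean was the lowest of the 3 stages.

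Arrays on a shared slide gave the same directions. The median difference of the 48 genes between starved and 0d shoots of the wt line was -0.61 on slide 1 and -0.75 on slide 3, with all 48 genes lower on each. It was -0.38 on slide 1 in the mut line, with 47 genes lower. Resupply gave 0.65 in the wt line on slide 5, and 0.45 and 0.63 in the mut line on slides 3 and 5, with all 48 genes higher each time.

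**Figure D2:**
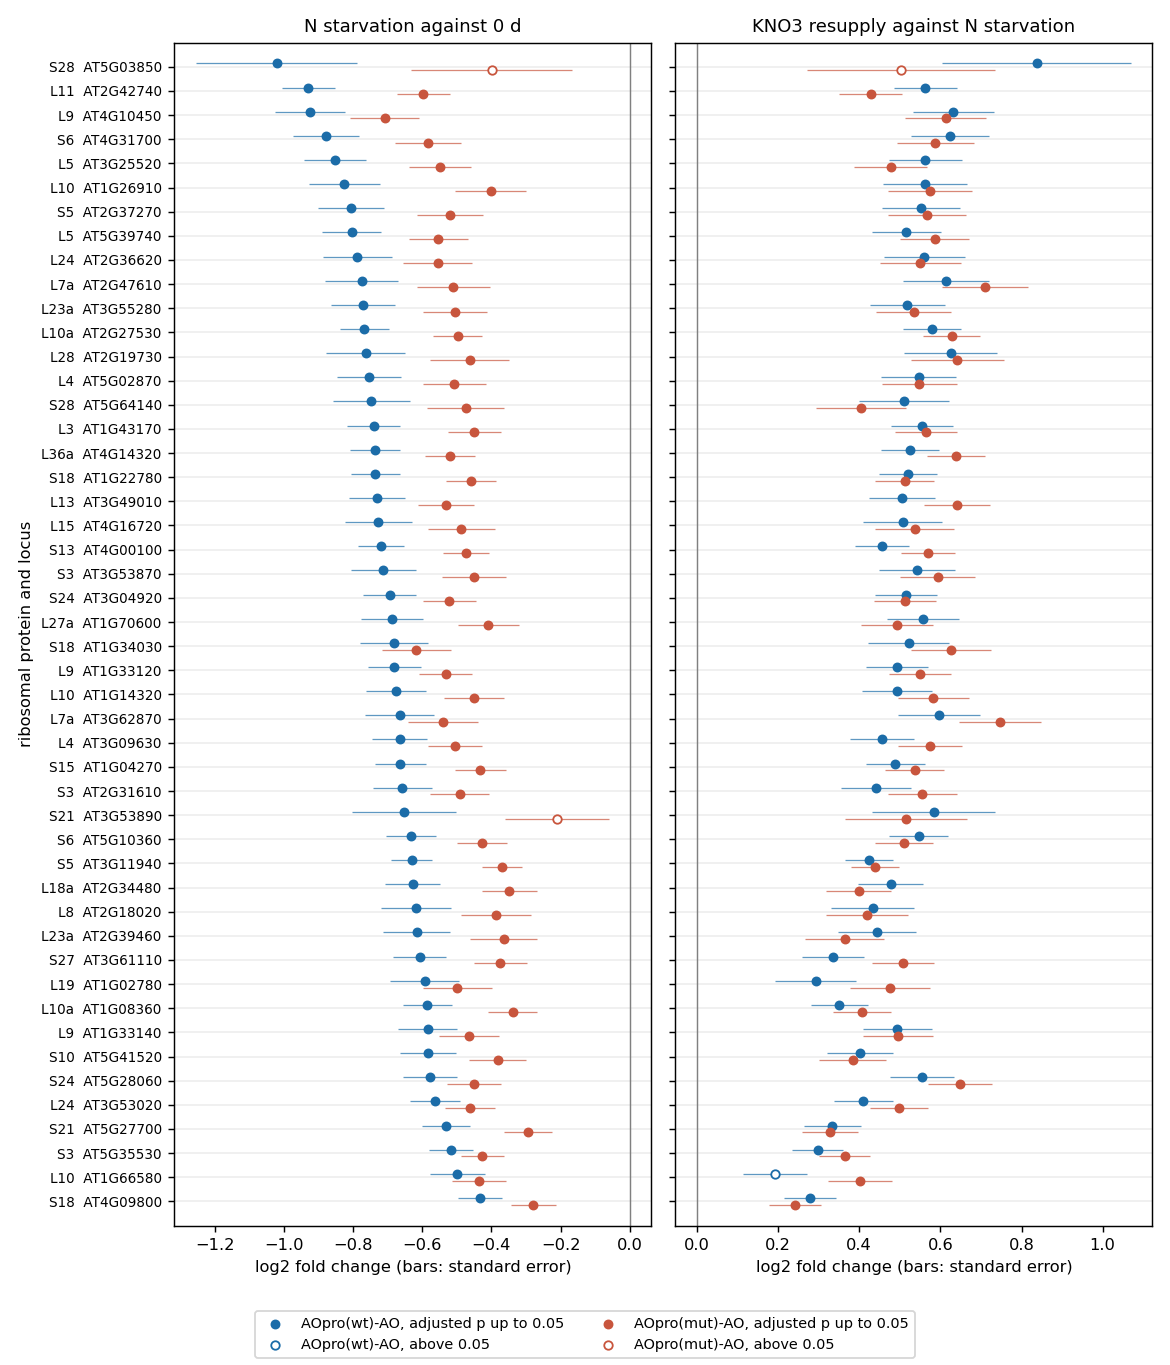
Fitted log2 fold change of each of the 48 genes with N starvation (left) and KNO3 resupply (right), with its standard error, for the wt line and the mut line. Genes are ordered by the change with starvation in the wt line. Filled points have an adjusted p of up to 0.05, and every filled point lies below 0 on the left and above 0 on the right.

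The genes were close to each other in size of change. The SD over the 48 genes was 0.09 to 0.12 in the 4 treatment comparisons, while the standard error of the change of a single gene had a median of 0.09 and ran from 0.06 to 0.23. The order of the genes was partly shared by the lines, which have no arrays in common. Across the 48 genes the Spearman correlation between the 2 lines was 0.62 for the change with starvation and 0.61 for the change with resupply. Genes are not independent replicates, and each line's genes were read on the same 6 arrays. Changes were also somewhat smaller in genes with brighter probes, with Spearman correlations with the mean signal of 0.19 and 0.23 for starvation and of -0.28 and -0.33 for resupply.

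At the deep end of the starvation response in the wt line, *RPL16A* (AT2G42740) encodes L11, which enters the large subunit together with 5S rRNA and L5. Its signal was 0.60, 0.63 and 0.54 at 0d, -0.27, -0.38 and -0.37 after starvation, and 0.07, 0.25 and 0.34 after resupply. The 3 stages did not overlap. The change with starvation was -0.93 (standard error 0.08, limma, adjusted p = 5.82e-07). In the mut line its signal was 0.63, 0.41 and 0.65 at 0d, 0.01, -0.08 and -0.02 after starvation, and 0.47, 0.28 and 0.44 after resupply. There the starved arrays lay below all others, and the change was -0.60 (adjusted p = 8.46e-05). The genes for its partner protein L5, *ATL5* (AT3G25520) and *RPL5B* (AT5G39740), changed by -0.85 and -0.80 in the wt line and by -0.55 and -0.55 in the mut line. A second probe of *RPL5B* gave -0.50 in the wt line and did not pass for resupply (0.16, against 0.52 by the first).

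AT4G10450, 1 of 3 genes for L9, was the next deepest. It read 2.50, 2.53 and 2.41 at 0d in the wt line, then 1.58, 1.54 and 1.55, then 1.91, 2.29 and 2.37. It read 2.35, 2.22 and 2.50 in the mut line, then 1.61, 1.73 and 1.60, then 2.31, 2.15 and 2.32. Its starved arrays stood clearly apart from the others in each line, and it had the largest fall of the 48 genes in the mut line (-0.71, standard error 0.10, adjusted p = 1.39e-04) beside -0.92 in the wt line (adjusted p = 4.53e-06). The paralog *PGY2* (AT1G33140), which is required for normal leaf shape, changed by -0.58 and -0.46, and AT1G33120 by -0.68 and -0.53.

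S6 is the ribosomal protein that S6 kinase phosphorylates downstream of TOR. *RPS6* (AT4G31700) read 4.80, 4.79 and 4.76 at 0d in the wt line, 3.98, 3.88 and 3.85 after starvation, and 4.28, 4.65 and 4.65 after resupply. The mut line gave 4.63, 4.63 and 4.86, then 4.21, 4.06 and 4.10, then 4.73, 4.58 and 4.82. Starved arrays were the lowest in each line. It fell by 0.88 and 0.58 with starvation on the log2 scale and rose by 0.62 and 0.59 with resupply, while its paralog *EMB3010* (AT5G10360) fell by 0.63 and 0.43 and rose by 0.55 and 0.51.

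S18, a protein of the small subunit head, had a paralog with smaller changes than the median of the set in all 4 treatment comparisons. It lay more than 3 scaled median absolute deviations from that median for resupply in each line, but not for starvation. *RPS18C* (AT4G09800) read 4.23, 4.30 and 4.33 at 0d in the wt line, 3.89, 3.82 and 3.84 after starvation, and 4.05, 4.09 and 4.25 after resupply. In the mut line it read 4.21, 4.20 and 4.38, then 4.08, 3.94 and 3.94, then 4.18, 4.22 and 4.28. Its starved arrays were still below the others, but the steps were the smallest or nearly so among the 48 genes. It fell by 0.43 (adjusted p = 5.95e-05) and 0.28 (adjusted p = 0.0036) with starvation and rose by 0.28 (adjusted p = 0.0028) and 0.24 (adjusted p = 0.0134) with resupply. *RPS18C* did not pass with normexp in the mut line, for starvation (-0.20, adjusted p = 0.0807) or resupply (0.21, adjusted p = 0.093), nor with quantile normalization for resupply in the wt line (0.10, adjusted p = 0.0867). Its resupply call in the mut line was also lost without replicate 2 or 3 of the starved arrays or replicate 3 of the resupplied ones (adjusted p = 0.052 to 0.0539).

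The other S18 genes are *PFL* (AT1G22780), named for the pointed first leaves of its mutant, and AT1G34030. *PFL* fell by 0.74 and 0.46 and rose by 0.52 and 0.51. AT1G34030 fell by 0.68 and 0.62 and rose by 0.52 and 0.63. With the arrays scaled to the median of the 48 genes, *RPS18C* was 0.25 above the set after starvation in the wt line (adjusted p = 0.0037) and 0.19 above it in the mut line (adjusted p = 0.0242), and changed by -0.22 (adjusted p = 0.0113) and -0.29 (adjusted p = 0.0018) against it with resupply. A second probe of *RPS18C* gave -0.53 and -0.30 for starvation and 0.36 and 0.33 for resupply, which is nearer to the rest of the set.

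**Figure D3:**
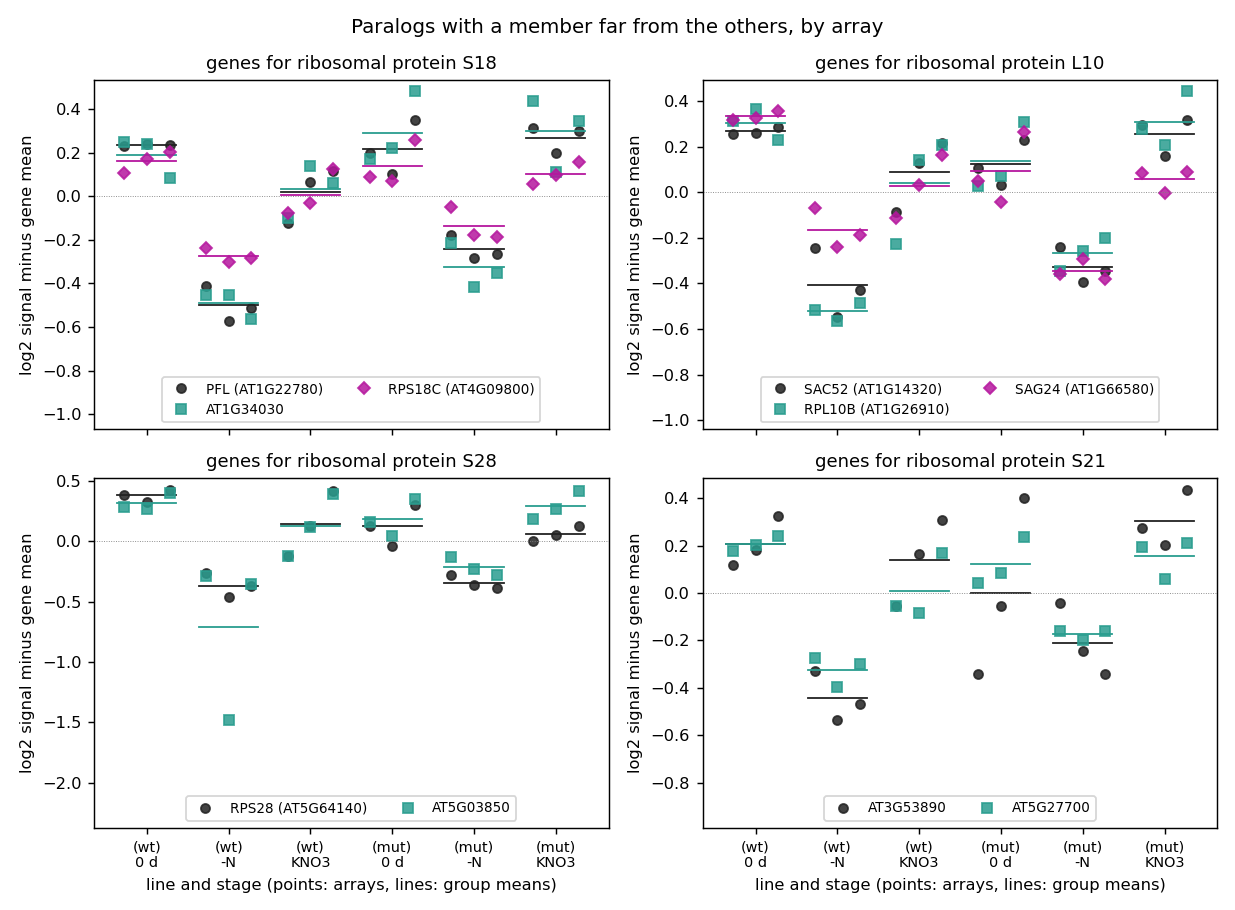
Log2 signal of the genes for S18, L10, S28 and S21 on each array, each gene set to its own mean (points: arrays, lines: group means). *RPS18C* stays nearest to 0 among the S18 genes in the starved wt line, *SAG24* lies above the other L10 genes in the starved wt line, and AT5G03850 has 1 low array, replicate 2 of the starved wt line.

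L10 is needed for the 2 subunits to join. *SAC52* (AT1G14320) read 5.57, 5.57 and 5.6 at 0d in the wt line, then 5.07, 4.77 and 4.88, then 5.23, 5.44 and 5.53. *SAG24* read 3.96, 3.97 and 4.0, then 3.58, 3.41 and 3.46, then 3.53, 3.68 and 3.81. *SAG24* thus fell, with no overlap of starved and 0d arrays, but its resupplied arrays overlapped the starved ones. *SAG24* in the mut line read 3.70, 3.61 and 3.91, then 3.29, 3.35 and 3.26, then 3.73, 3.64 and 3.74, and these starved arrays lay below all others.

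*SAG24* fell by 0.50 (adjusted p = 1.04e-04) in the wt line and by 0.44 in the mut line, and its resupply value was 0.19 in the wt line against 0.40 in the mut line (difference 0.21, standard error 0.11, adjusted p = 0.29). Against the median of the 48 genes it changed by -0.30 with resupply in the wt line (adjusted p = 4.67e-04). *SAC52* rose by 0.49 and 0.58 with resupply. *RPL10B* (AT1G26910), the dimmest probe of the set, fell by 0.83 in the wt line and by 0.40 in the mut line and rose by 0.56 and 0.57. The difference between *RPL10B* and *SAG24* was 0.37 for resupply in the wt line, the widest of the 23 pairs of paralogs in that comparison, and was not tested since the pair was chosen for it.

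AT5G03850, for S28, had the largest fitted fall, and its size came from 1 array. The gene read 4.13, 4.12 and 4.25 at 0d in the wt line, 3.56, 2.37 and 3.50 after starvation, and 3.73, 3.97 and 4.24 after resupply. Replicate 2 of the starved arrays stood more than 1 log2 unit below the other 2. The fitted change was -1.02 (standard error 0.23, adjusted p = 0.0018) with that array and -0.63 (adjusted p = 9.91e-04) without it, and for resupply 0.84 (adjusted p = 0.009) with it and 0.45 (adjusted p = 0.0121) without it. With only the arrays compared in the fit, the resupply value did not pass (adjusted p = 0.0986). Its paralog *RPS28* (AT5G64140) read 2.94, 2.74 and 2.83 on those starved arrays, with no low array, and changed by -0.75 with starvation and 0.51 with resupply. The gene had no second tested probe.

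AT3G53890, for S21, departed from the set in the mut line at 0d. It read 2.97, 3.26 and 3.71 on those 3 arrays, which differ widely, and 3.27, 3.07 and 2.97 after starvation. The stages overlapped, and the change of -0.21 went to -0.38 without replicate 1 at 0d and to -0.01 without replicate 3. In the wt line the same gene read 3.43, 3.50 and 3.64, then 2.99, 2.78 and 2.85, with a change of -0.65. The paralog AT5G27700 fell by 0.53 and 0.29.

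Further genes with small steps after resupply in the wt line were *emb2386* (AT1G02780, 0.29, adjusted p = 0.0262), for L19 of the large subunit, which did not pass with quantile normalization (0.07, adjusted p = 0.55), with normexp (0.25, adjusted p = 0.0849) or without replicate 2 or 3 of either stage (adjusted p up to 0.0882), and AT5G35530 (0.30, adjusted p = 0.0015), 1 of 3 genes for S3, which lies where mRNA enters the ribosome. Other settings and the other probes of each gene gave 0.07 to 0.40 for *emb2386* and 0.20 to 0.39 for AT5G35530. AT5G35530 read 3.18, 3.20 and 3.19 at 0d, then 2.74, 2.64 and 2.64, then 2.83, 3.02 and 3.07. Its resupplied arrays lay between the other stages without overlap. The largest rises in the mut line were those of both L7a genes, AT3G62870 (0.75, adjusted p = 2.62e-04) and AT2G47610 (0.71, adjusted p = 4.56e-04).

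Among the brightest probes, AT1G70600 for L27a fell by 0.69 and 0.41 with starvation in the wt and mut lines, and *RPL23AA* (AT2G39460) for L23a fell by 0.62 and 0.36. AT2G19730 for L28 had some of the largest rises with resupply, 0.63 and 0.64, as did AT5G28060 for S24 in the mut line, 0.65. The remaining genes moved with the set in each line. They encode L3 (*RP1*), which reaches the peptidyl transferase centre, L4, L8, L10a (*PGY1* and AT1G08360), L13 (*BBC1*), L15, L18a, L23a at the exit of the peptide tunnel, L24 (*RPL24A* and *STV1*), L27a, L28 and L36a, and S3, S5 (*RPS5A* and *RPS5B*), S10, S13, S15, S24 and S27. Their changes with starvation lay between those of *RPS18C* and *RPL16A* in the wt line. Over the 23 pairs of paralogs in the set the median distance between the changes of a pair was 0.18 and 0.08 for starvation and 0.14 and 0.12 for resupply, in the wt line and the mut line. The widest pair was 0.38 apart, and no pair moved in opposite directions under either treatment. Probes of paralogs can share signal where their sequences are alike, which was not examined since probe sequences were not used here.

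Of the 48 genes, 27 had more than 1 tested probe. For starvation none of these genes changed its call between probes in the wt line and 1 did in the mut line, and for resupply 1 did in the wt line and none in the mut line. The median distance between probes was 0.04 to 0.08 in these comparisons. Between the lines the call differed between probes in none of the 27 genes at 0d, in 8 after starvation and in 9 after resupply.

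The fall with starvation was larger in the wt line than in the mut line by a median of 0.24 over the 48 genes, with all 48 differences in this direction and a range of 0.06 to 0.62. The upper end is AT5G03850, for which the difference was 0.235 without replicate 2 of the starved wt line. No gene passed the test of the difference itself at an adjusted p of 0.05 (limma), where 4.72% of all genes were above 0 and 3.11% below. At an unadjusted p of 0.05, 16 of the 48 genes passed, and the lowest adjusted p was 0.07. With array weights 18 genes passed, all in this direction, with only the 12 arrays compared 4 did, and without replicate 3 of the mut line at 0d 5 did. Shares of all genes at the unadjusted p or under these settings were not counted. The 48 genes were read on the same arrays and are not independent replicates of the shared direction. For resupply the median difference between the lines was 0.02, and 0 genes passed, also at the unadjusted p, where 3.18% of all genes were above 0 and 2.98% below.

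At 0d the 48 genes differed little between the lines. The median difference, the mut line minus the wt line, was -0.09, and 1 gene passed, *SAG24*, which was 0.24 lower (adjusted p = 0.027), where 19.3% of all genes were higher and 19.3% lower. *SAG24* no longer passed when any 1 array of the 2 groups other than replicate 3 of the mut line was left out, or with the slide as a block (adjusted p = 0.06). *RPS10B* (AT5G41520), for S10, had the highest value (0.14, adjusted p = 0.21) and *RPS28* the lowest (-0.25, adjusted p = 0.09). Within slides the median difference was -0.11 on slide 1, with 44 genes lower, and 0.04 on slide 4, with 34 genes higher. The median went to -0.14 without replicate 3 of the mut line and to -0.04 without its replicate 2.

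After starvation the median difference was 0.15 and 9 genes were higher in the mut line, where 26.5% of all genes were higher and 25.5% lower. They were *RPS10B* (0.34), *RPL16A* (0.31), AT2G47610 (0.30), *RPS15* (AT1G04270, 0.29), *PFL* (0.26), *BBC1* (AT3G49010, 0.21), *RP1* (AT1G43170, 0.21), *PGY1* (AT2G27530, 0.19) and *RPS5A* (AT3G11940, 0.17). The count was 4 without replicate 2 of the starved wt line or replicate 1 of the starved mut line, and 5 without replicate 3 of either. Of these genes *RPS10B*, AT2G47610, *RP1* and *RPS5A* had another probe with a different call. After resupply 14 genes were higher and none was lower, where 25.4% of all genes were higher and 21.9% lower, with a median of 0.17. The shares of 9 and 14 of 48 genes lie below or near those of all genes. All 48 genes were higher in the mut line on slide 2 after resupply (median 0.38), and 43 on slide 5 (median 0.13), while the 3 slides with starved arrays of both lines gave medians of 0.12, 0.20 and 0.13. The count after resupply was 8 without replicate 1 of the resupplied wt line, the array with the lowest level in its group, where the median was 0.08, and 25 without its replicate 3, and it was 9 and 8 without replicates 1 and 3 of the resupplied mut line.

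**Figure D4:**
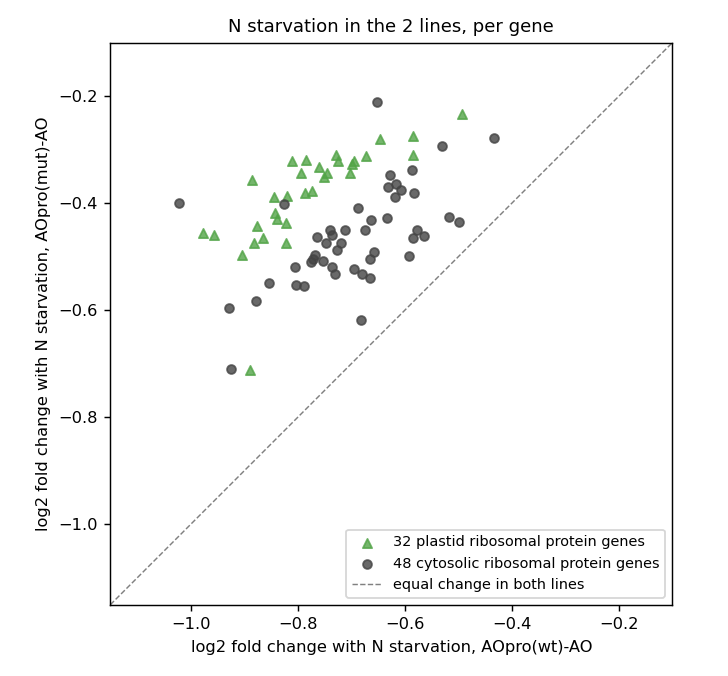
Log2 fold change with N starvation in the wt line (x axis) and in the mut line (y axis) for the 48 cytosolic (circles) and 32 plastid (triangles) ribosomal protein genes. The dashed line marks equal change, and every point lies above it, which means a smaller fall in the mut line.

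The genes of other parts of protein synthesis were read in the same way. Of 168 other cytosolic ribosomal protein genes tested, 163 were lower and 1 was higher with starvation in the wt line (median -0.69) and 161 and 1 in the mut line (median -0.46). The gene that rose in each was AT3G28500, for a P2 protein of the ribosomal stalk, by 1.35 and 1.1. With resupply 162 and 159 were higher (medians 0.49 and 0.47) and none was lower. Between the lines at 0d, 13 of the other genes were higher and 2 lower. Both shares lie below those of all genes, of which 19.3% were higher and 19.3% lower. Of the 13, 10 were higher by more than 0.5, and 9 of these lie on chromosome 5. The same held for 9 of 12 after starvation and 9 of 11 after resupply. None of the 48 genes, of which 9 lie on chromosome 5, reached 0.5. By locus number the set has no gene between AT5G41520 and AT5G64140. The strongly raised AT5G57290 (1.01 at 0d) and AT5G61170 (1.23 after starvation) lie between these 2. The part of position in the contrast was not tested.

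The 32 nuclear genes for plastid ribosomal proteins, which serve translation in the chloroplast, all fell with starvation, by a median of 0.79 in the wt line and 0.35 in the mut line. With resupply 32 rose in the wt line (median 0.51) and 14 in the mut line (median 0.17). The difference between the lines passed for 26 of the 32 with starvation, all with the smaller fall in the mut line (median 0.40), and for 15 with resupply (median -0.34). None of the 48 cytosolic genes passed either test, and the 2 lists were not set against each other by a test. *GHS1* (AT3G27160), for S21 of the plastid ribosome, differed by 0.52 (adjusted p = 0.0104) for starvation and by -0.51 (adjusted p = 0.0104) for resupply.

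**Figure D5:**
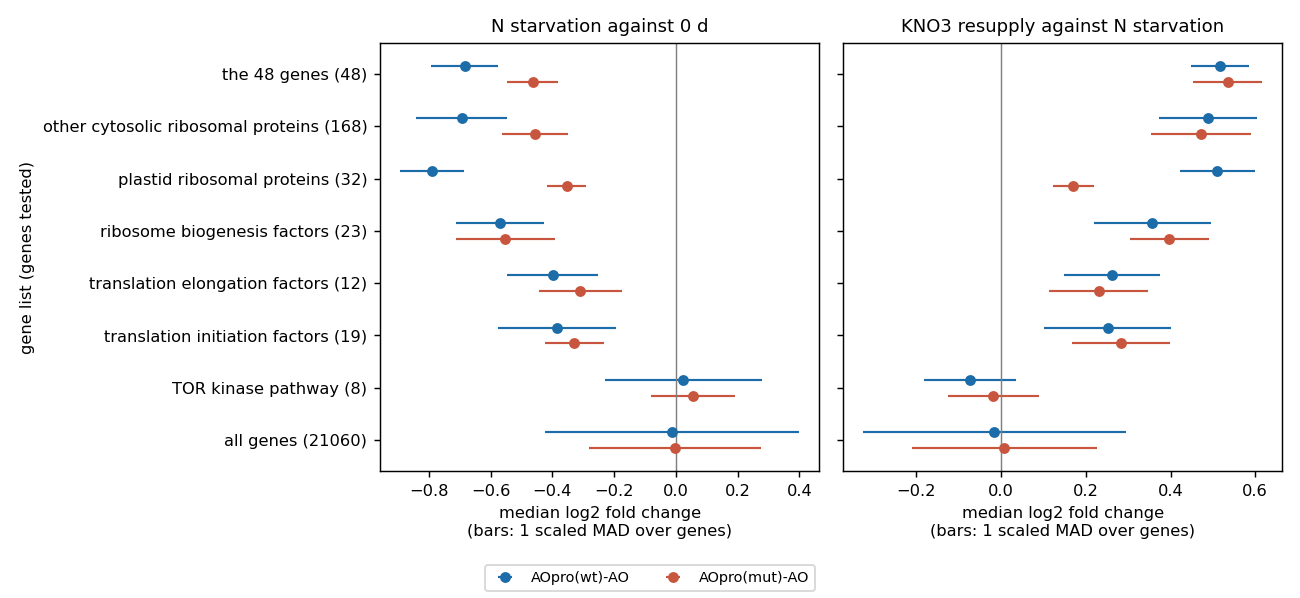
Median log2 fold change of the 48 genes, 6 other gene lists of protein synthesis and the TOR pathway, and all genes, with N starvation (left) and KNO3 resupply (right) in the 2 lines, with bars of 1 scaled median absolute deviation over the genes. The 48 genes lie with the other cytosolic ribosomal proteins in all 4 comparisons, among the lists plotted the plastid list differs most between the lines, and the TOR list lies near 0.

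Of 23 ribosome biogenesis factors, 21 fell and 1 rose with starvation in the wt line (median -0.57) and 22 fell in the mut line (median -0.55). *FIB2* (AT4G25630), a fibrillarin that methylates ribosomal RNA, fell by 0.90 (adjusted p = 2.18e-04) and 0.86 (adjusted p = 7.27e-04). With resupply 16 and 17 of these genes rose. Of 12 elongation factors, 12 and 10 fell with starvation (medians -0.40 and -0.31), and 10 and 5 rose with resupply. Of 19 initiation factors, 16 fell in each line, with medians of -0.39 and -0.33, and 13 and 14 rose with resupply. The exceptions included *ELF5A-3* (AT1G69410), which rose with starvation by 0.21 in each line.

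Of 8 genes of the TOR pathway, 2 rose and 1 fell with starvation in each line, with medians of 0.02 and 0.06, and none rose and 2 fell with resupply. With starvation 28.1% and 18.1% of all genes were higher and 31.9% and 23.4% lower, in the wt and mut lines. With resupply 23.3% and 14.1% were higher and 25.0% and 13.2% lower. Counts of 2 in 8 genes lie near or above these shares, and the list was not tested as a set. *S6K2* (AT3G08720), a kinase that phosphorylates S6, rose by 0.68 (adjusted p = 2.3e-05) and 0.52 (adjusted p = 5.43e-04) with starvation and fell by 0.65 (adjusted p = 6.13e-05) and 0.37 (adjusted p = 0.0079) with resupply, opposite to the genes for S6 itself.

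Markers of dividing cells moved with starvation as well. All 10 fell in each line, with medians of -0.69 and -0.40, and their summed signal in the wt line was between 7.45 and 8.95 at 0d and between 4.82 and 5.0 after starvation. In the mut line the sum was between 9.16 and 10.0 and then between 6.97 and 7.69. With resupply none passed as higher, and 1, *CDC20.2* (AT4G33260), fell by 0.21 in the wt line, while the ribosomal protein genes rose. The fitted changes with resupply were above 0 in all 10 markers in the mut line (median 0.16). In the wt line they were below 0 in 9 of the 10 markers (median -0.10). Between the lines 6, 10 and 10 of them were higher in the mut line at the 3 stages. Seed storage genes had summed signals of 0.03 to 0.22 at 0d in the wt line and 0.26 to 0.55 in the mut line, and at most 0.02 at the later stages. Of the 5 leaf cell genes 1 rose with starvation in the mut line and none passed in the wt line, and none of the 3 root genes passed in either line. The part of these lists in the results was not tested, and in whole shoots fewer dividing cells and less RNA per cell cannot be told apart.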

How the data were processed

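RNA of whole shoots was labelled with Cy3 and hybridized to one-colour Agilent Arabidopsis arrays. The deposited scanner files hold the background-corrected probe intensity on a linear scale, which the authors obtained with Feature Extraction (version 12.1.1.1 in the submitters' processing notes); the study's methods name another version. A deposited table of intensity divided by about the 75th percentile of the array was used as an alternative. Here the log2 of the processed signal was taken, flagged outlier spots (3 to 91 per array) were left out, repeated spots were averaged and the 75th percentile of each array was subtracted. Probes were matched to loci through their transcript accession and the RefSeq table of TAIR10.1, used for names only. Probes well above background on all 3 arrays of a group were tested (29416 probes, 21060 genes), and the brightest tested probe stood for a gene.

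One limma model of 6 group means over 18 arrays gave all contrasts, with moderated variances, and p was adjusted over all tested probes after Benjamini and Hochberg. A gene passed at an adjusted p of 0.05. The number of arrays limits the precision, and p-values measure the spread between pools of seedlings. Genes were named from the 4 highest and 4 lowest of the set in each treatment and at 0d, those more than 3 scaled median absolute deviations from the median of the set, the brightest and dimmest, and those of each list that moved most. The genes of the set and the other lists were chosen with earlier results of these data known. Software was R 4.3.3 with limma 3.58.1, and Python 3.11.15 with matplotlib 3.10.9.

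The replicate numbers were checked as a pairing by the correlation of deviations from the group means. For the lines at 0d it was 0.17, 0.12 and 0.22 for the 3 numbers, all over 0.1. The labels give no reason for it. At 0d the arrays numbered 1 of both lines lay on slide 1 and those numbered 3 on slide 4. The main model held no pairing, and the replicate number was used as a block only in an alternative. In the other comparisons at least 1 number was below 0.1. On simulated data with 200 probes changed by 0.7, the model recovered 145 for starvation in the wt line, 165 in the mut line, and 114 for the difference of the lines under starvation, of 29224 probes. No other probes were changed there. The simulated 0.7 is larger than the median difference of the lines of 0.24 in the 48 genes, and recovery at that smaller size was not simulated. Alternatives are given at the end. Promoter and protein sequences were not used here.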

Additional observations from a re-analysis of the deposited data

Results flagged for a closer look

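The interaction test, for a treatment effect that differs between the lines, passed for genes of several lists set beside the 48 genes and for none of the 48. For starvation the differences of all 48 were still above 0 (median 0.24), and 16 of the 48 passed at an unadjusted p of 0.05. The share of all genes at that unadjusted p was not counted, and the 48 genes were read on the same arrays. For N starvation the test passed for 26 of 32 plastid ribosomal protein genes, where 4.72% of all genes were above 0 and 3.11% below. It also passed for 1 of 19 initiation factor genes (*LSP1*, AT5G35620, a cap-binding eIFiso4E, difference 0.36, adjusted p = 0.0227). It passed for 1 of 5 leaf cell genes (*LHCB2.3*, AT3G27690, difference 1.2, adjusted p = 0.0311) and for 1 of 5 seed storage genes (*CRU3*, AT4G28520, difference -3.75, adjusted p = 0.0218). *CRU3* was dim (mean log2 signal -8.02 over all arrays) and was 3.81 higher in the mut line at 0d (limma, adjusted p = 1.92e-04). After starvation none of the 5 seed storage genes passed between the lines, and their summed signal was at most 0.02. The *CRU3* difference is the gap after starvation less the gap at 0d. A response apart from the 0d gap was not tested. For KNO3 resupply the interaction test passed for 15 of the 32 plastid ribosomal protein genes and for 1 of 168 other cytosolic ribosomal protein genes, AT5G39850 (difference 0.42, adjusted p = 0.0457). Here 3.18% of all genes were above 0 and 2.98% below. The shares of 1 of 19 and 1 of 168 genes lie near or below those of all genes. Groups of 3 arrays are too small for a test of single arrays, so the low value of AT5G03850 on 1 starved array is given in the report only.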

How the results depend on the processing

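The median directions of the treatment comparisons held under every alternative run. Under 13 other settings the count of genes passing was 48 for starvation in the wt line, 42 to 47 in the mut line, and 45 to 48 and 45 to 47 for resupply, and with 1 array left out it was 48, 46, 46 to 48 and 43 to 47. Quantile normalization moved the medians to -0.53, -0.36 and 0.38 for starvation in the 2 lines and resupply in the wt line. With a fold change of 2 also required, 1 gene remained for starvation in the wt line and 0 in all other comparisons. With the replicate block the counts were 48, 46, 47 and 47 for the treatments and 1, 12 and 13 for the lines. The block changed no call of the 0d comparison. In the other comparisons the labels give the samples only a shared number. Some same-numbered arrays also shared a slide, such as replicate 1 of the wt line at 0d and after starvation, on slide 1.

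The line comparisons were less stable, and the cause was not tested. At 0d the count of 1 became 0 with normexp, with the slide block and with only the arrays compared, 2 with quantile normalization and 11 with array weights, and 0 to 3 with 1 array left out; without replicate 2 of the mut line the 1 gene was *RPS10B*, higher instead of lower. After starvation 9 became 4 with normexp, 18 with array weights and 14 with only the arrays compared, and 4 to 12 with 1 array left out. After resupply 14 became 9 with the median shift, 9 with array weights and 5 with only the arrays compared, and 8 to 25 with 1 array left out. For the difference of the lines under starvation 0 became 18 with array weights, 4 with only the arrays compared, and 0 to 5 with 1 array left out. The shares of all genes passing under these settings were not counted. Named genes that did not pass and changed sign were AT2G47610 at 0d (-0.0323 with normexp), AT5G03850 in the difference of the lines under resupply (-0.544 to 0.0522 with 1 array left out, above 0 without replicate 2 of the starved wt line) and *RPS28* (AT5G64140) between the lines after resupply (-0.213 to 0.0542, above 0 without replicate 3 of the wt line). Scan time follows the slide, so it was not run as a block of its own. Signal over background was no limit, since all 48 genes were well above it on all arrays.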
